A study of Mus musculus with 9 samples.

Results

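Members of the MYC and MAX transcription factor network, the 8 genes Myc, Max, Mxi1, Mxd1, Mxd3, Mxd4, Mnt and Mga, were examined in mouse bone marrow-derived macrophages. They were selected by gene symbol from a count table of 46095 symbols, and all 8 were found and passed the filter on low counts, among 14026 genes that passed. The choice was made from the levels of these genes in all 3 groups of the study, so their differences between groups are given as a description. No p-value is given for a member. Whether a member passed the threshold set over all genes is stated, also only as a description.

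Messenger RNA was sequenced from bone marrow-derived macrophages, cells grown in culture from marrow precursors, of wild type Balb/c mice with a labelled age of 6 week. The 3 groups, all of the same strain and genotype, were LPS plus BHB, LPS, and control, with 3 libraries each. The labels give no dose or time and spell out neither abbreviation, although LPS commonly stands for lipopolysaccharide, a bacterial product sensed by the receptor TLR4, and BHB for beta-hydroxybutyrate, a ketone body. There was no group given BHB without LPS. Whether the 3 libraries of a group came from separate cultures or animals is not stated, so every p-value below measures only the spread between these samples. Library totals ran from 29633411 to 32798920 counts.

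MYC and MAX are basic helix-loop-helix leucine zipper proteins that bind DNA as a pair at the E-box CACGTG and activate genes of ribosome assembly, nucleotide synthesis and growth. MAX also pairs with MXD1, MXI1 (also called MXD2), MXD3, MXD4 and MNT, which occupy the same sites and recruit SIN3 corepressor complexes, so these proteins oppose MYC. MGA is a large MAX partner that also carries a T-box domain and belongs to the Polycomb complex PRC1.6. Resting macrophages divide little, and MYC in these cells is known for growth and metabolic programmes.

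Promoter windows of 300 bases (250 before and 50 after the start site) came from RefSeq, build GRCm38.p6, which held 9 windows for 7 of the 8 genes, all but Myc. They were searched on both strands for the E-box CACGTG, because network factors bind it, and for ACGTG, the core letters of the site known to bind hypoxia-inducible factors. The E-box reads the same on both strands and contains ACGTG. It was present in the windows of Max, Mxd4 and Mnt and in 7.15% of all 32851 windows. Outside an E-box, ACGTG was present in 2 windows of Mxi1 and in that of Mga, and with or without an E-box in 19.6% of all windows. Neither was found in the windows of Mxd1 and Mxd3. Of the letters in the 9 windows, 56% to 76.7% were G or C, against a median of 52.7% over all windows. The part of this difference in the matches was not tested. These matches describe letters in the windows and show no binding. The stretches that hold them follow, 5′ to 3′ on the strand of the gene, with the matched motif in capitals; the first letter of the motif lies at the position given, counted from the start site as 0 with negative values upstream.
Max, chr12:76962216-76962281, minus strand, motif at -3: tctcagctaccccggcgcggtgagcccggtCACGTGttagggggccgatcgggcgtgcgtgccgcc
Mnt, chr11:74830771-74830836, plus strand, motif at -123: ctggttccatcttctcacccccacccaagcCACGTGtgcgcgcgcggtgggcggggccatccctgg
Mxd4, chr5:34187894-34187959, minus strand, motif at -219: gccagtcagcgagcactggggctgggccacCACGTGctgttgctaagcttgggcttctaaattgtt
Mxi1, chr19:53329317-53329381, plus strand, motif at -66: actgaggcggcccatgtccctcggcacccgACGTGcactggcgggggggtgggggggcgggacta
Mxi1, chr19:53329640-53329704, plus strand, motif at -25: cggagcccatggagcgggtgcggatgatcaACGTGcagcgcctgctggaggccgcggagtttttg
Mga, chr2:119897190-119897254, plus strand, motif at -8: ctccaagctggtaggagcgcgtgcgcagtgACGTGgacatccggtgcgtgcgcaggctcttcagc
The E-box of Max is the one that spans the immediate start region, while those of Mnt and Mxd4 lie further upstream. Both Mxi1 matches belong to separate annotated start sites of that gene. Its further window, chr19:53310256-53310555, held neither motif. Further motifs were searched too: CACGCG, a variant E-box, was in 9.27% of windows and in that of Mga, whereas TGACGTCA, the cyclic AMP response element, in 1.79% of windows, and a kappa B consensus, in 4.51%, were in none of the 9.

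Some features of the libraries bear on the values. Control replicates 2 and 3 held 1739 and 1808 counts of Acod1, a gene strongly induced by LPS, against 24 in control replicate 1, and 156090 to 172641 in the LPS libraries. LPS plus BHB replicate 3 differed most from its group, with a chi-square per degree of freedom of 10.41 and 10.03 against the others. Sizes without these libraries are given below for Myc (control replicates 2 and 3) and Mxi1 (LPS plus BHB replicate 3). All 10 macrophage markers had counts in every group, with summed levels of 18273 to 18893, 12844 to 14389 and 24339 to 27898 CPM (counts scaled to a total of 1000000 per library) in LPS plus BHB, LPS and control libraries. Of 35 markers of other cell types, 33 stayed below 5 CPM on average in every group. The exceptions were Pdgfrb, a pericyte and fibroblast receptor, at 138, 98.5 and 3.54 CPM in the same order of groups, and Zbtb46, a dendritic cell factor, at 13.6, 20.3 and 0.869 CPM. All 6 stromal markers had counts in every group, with summed levels of 131 to 160, 98.0 to 108 and 5.91 to 14.2 CPM, and of 6 dendritic cell markers 5, 6 and 6 had counts, with sums of 16.4 to 17.5, 20.0 to 24.7 and 1.66 to 2.40 CPM and Clec9a at 0 in LPS plus BHB libraries. Their part in the results below was not tested. The fibroblast collagen genes Col1a1 and Col1a2 were at 1.68 to 2.78 CPM in every group.

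Levels are given in CPM of the library total scaled by TMM (trimmed mean of M values), with SD over 3 libraries, and gene positions are those of GENCODE M21 on GRCm38, the assembly that mm10 names. Log2 fold changes with their SE come from edgeR's quasi-likelihood fit over all 9 libraries. The threshold was a Benjamini-Hochberg adjusted p of 0.05 in that fit, taken over all 14026 genes. In bulk samples, fewer cells expressing a gene and less RNA per cell cannot be told apart.

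Myc, the network's activator (ENSMUSG00000022346.15, chr15:61985391-61990374, plus strand), was highest in LPS libraries and overlapped between the other groups. Its level was 13.3, 13.4 and 16.0 CPM in LPS plus BHB libraries, 32.3, 32.7 and 32.4 CPM in LPS libraries, and 11.6, 13.2 and 16.9 CPM in control libraries. The LPS libraries lay above all others with hardly any spread, and the LPS plus BHB values fell inside the range of the control values. Myc averaged 14.2 ± 1.51, 32.5 ± 0.187 and 13.9 ± 2.75 CPM in the 3 groups (SD, n = 3 each). The log2 fold change was -1.19 (SE 0.11) in LPS plus BHB against LPS and 1.22 (SE 0.11) in LPS against control. Between LPS plus BHB and control it was 0.03 (SE 0.11), and its sign depended on the processing. It was -0.29 and past the threshold with library totals in place of TMM. Without control replicates 2 and 3 it was 0.30, and the LPS against control value was 1.49. That setting leaves control replicate 1 alone, the control library with the lowest Myc level (11.6 CPM), so only the sizes are given.

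For Max, the shared partner (ENSMUSG00000059436.13, chr12:76937269-76962201, minus strand), the E-box shown above lies at the RefSeq start, upstream of this GENCODE span. Max had the same order of groups as Myc with a clear step between each. It stood at 120, 113 and 100.5 CPM in LPS plus BHB libraries, 155, 155 and 161 CPM in LPS libraries, and 69.5, 77.1 and 69.8 CPM in control libraries. No 2 groups overlapped. Its log2 fold change was -0.49 (SE 0.06) in LPS plus BHB against LPS, 1.12 (SE 0.06) in LPS against control, and 0.63 (SE 0.06) in LPS plus BHB against control. All LPS plus BHB libraries lay above all control libraries.

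Mxi1, an antagonist that pairs with MAX (ENSMUSG00000025025.14, chr19:53310518-53375810, plus strand), had the widest range of the 8 genes. Its level was 92.3, 91.3 and 114.6 CPM in LPS plus BHB libraries, 8.41, 7.76 and 6.51 CPM in LPS libraries, and 52.7, 54.0 and 45.0 CPM in control libraries. The 3 groups did not overlap, and each library with both agents lay above each control library. Mxi1 averaged 99.4 ± 13.2, 7.56 ± 0.968 and 50.5 ± 4.88 CPM (SD, n = 3 each). In LPS plus BHB against LPS it was 13.1-fold higher (log2 fold change 3.71, SE 0.12), a size larger than that of 99.5% of all genes tested. In LPS against control it was 6.67-fold lower (log2 fold change -2.74, SE 0.12), and in LPS plus BHB against control 1.97-fold higher (log2 fold change 0.98, SE 0.10). These sizes were larger than those of 87.9% and 56.3% of all genes tested. Such values chose the members, so these ranks are a description only. Leaving out LPS plus BHB replicate 3, the highest library, gave 3.60 against LPS and 0.87 against control. The annotation lists 9 Mxi1 transcripts, which include forms from separate start sites, and counts per gene do not separate them.

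Mxd1, the antagonist best known from differentiating cells (ENSMUSG00000001156.9, chr6:86647042-86669161, minus strand), was also highest in LPS plus BHB libraries, on a smaller scale. Its level was 33.2, 33.3 and 40.2 CPM in LPS plus BHB libraries, 22.1, 20.4 and 22.1 CPM in LPS libraries, and 24.5, 23.6 and 23.9 CPM in control libraries. All LPS plus BHB values lay above the rest, and the LPS values lay just below those of control. The log2 fold change was 0.72 (SE 0.08) in LPS plus BHB against LPS and 0.57 (SE 0.08) in LPS plus BHB against control. In LPS against control it was -0.15 (SE 0.08), short of the threshold, and -0.43 and past it with library totals in place of TMM.

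Mxd4 (ENSMUSG00000037235.13, chr5:34173883-34187720, minus strand), an antagonist found mainly in resting and differentiated cells, was highest in control libraries. It stood at 18.04, 18.1 and 14.96 CPM in LPS plus BHB libraries, 12.003, 12.6 and 14.0 CPM in LPS libraries, and 54.7, 55.5 and 53.0 CPM in control libraries. The groups did not overlap, but those with LPS lay close together and far below control. The log2 fold change was 0.41 (SE 0.09) in LPS plus BHB against LPS, -2.08 (SE 0.08) in LPS against control, and -1.67 (SE 0.08) in LPS plus BHB against control. An antisense gene, Gm42846, overlaps 1001 exon bases of Mxd4, and since the strand setting of the counting is not given, reads of the pair cannot be told apart. The same holds for Mxi1 and Gm10197, whose span covers 194 exon bases of Mxi1. Neither Gm42846 nor Gm10197 is among the symbols of the count table.

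Mxd3, an antagonist of dividing cells (ENSMUSG00000021485.14, chr13:55325168-55329823, minus strand), was barely detected. It had 26, 5 and 8 counts in LPS plus BHB libraries, 17, 11 and 21 counts in LPS libraries, and 27, 22 and 11 counts in control libraries. The groups overlapped throughout, and no difference was detectable at this depth. Of its exon bases, 105 lie within the span of Prelid1 on the other strand.

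**Figure D1:**
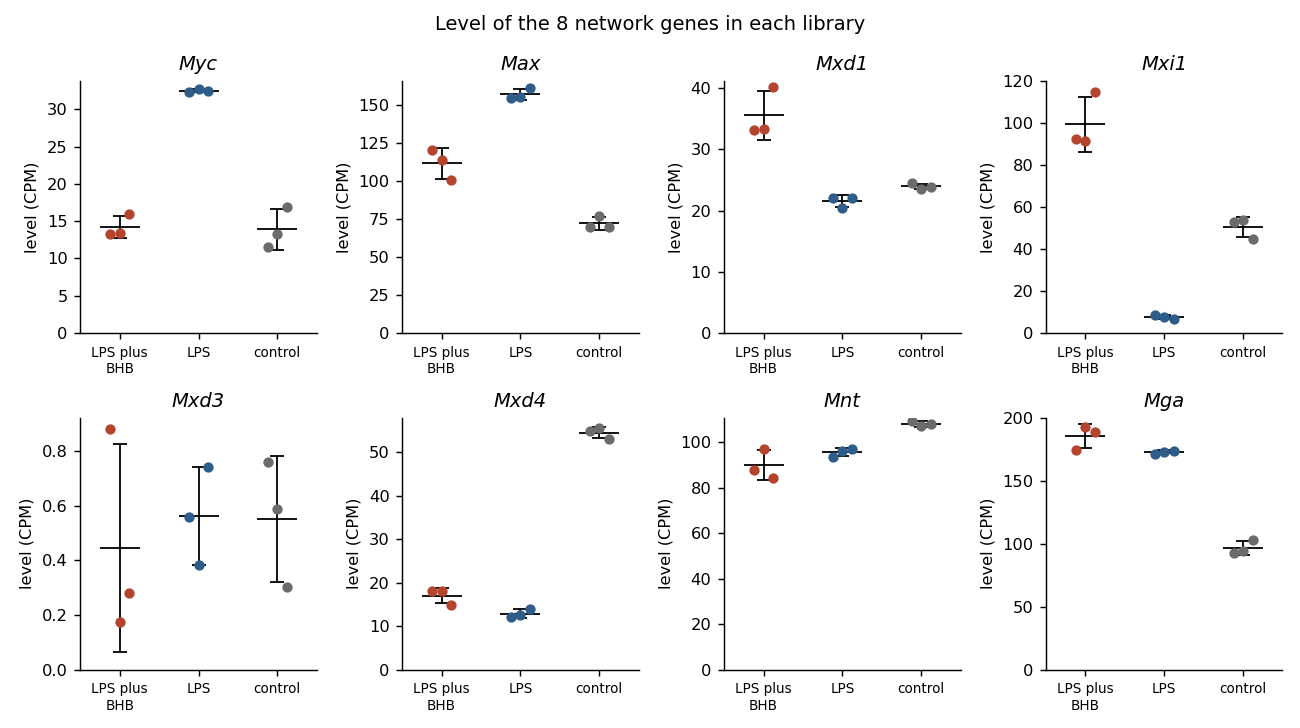
Level (CPM) of each of the 8 network genes in each library, with LPS plus BHB, LPS and control from left to right in each panel; points are libraries, bars the mean and SD of 3. Myc and Max were highest in LPS libraries (mean 32.5 and 157 CPM), Mxi1 and Mxd1 in LPS plus BHB libraries (99.4 and 35.6 CPM), and Mxd4 in control libraries (54.4 CPM).

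Mnt had the narrowest range of the 8 genes, with its highest group mean 1.20 times its lowest. Mnt (ENSMUSG00000000282.12, chr11:74830920-74845725, plus strand), which opposes MYC in most cell types, stood at 87.9, 97.3 and 84.6 CPM in LPS plus BHB libraries, 93.7, 96.3 and 97.3 CPM in LPS libraries, and 109.6, 107 and 108 CPM in control libraries. The control libraries lay above all others, while the groups with LPS overlapped. Its log2 fold change was -0.09 (SE 0.05) in LPS plus BHB against LPS, -0.18 (SE 0.05) in LPS against control, and -0.27 (SE 0.05) in LPS plus BHB against control. The first value missed the threshold but passed it with library totals (-0.14) and without LPS plus BHB replicate 2 (-0.15).

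Mga (ENSMUSG00000033943.15, chr2:119897228-119969581, plus strand) was higher in both groups with LPS. Its level was 175, 193 and 189 CPM in LPS plus BHB libraries, 172, 173 and 174 CPM in LPS libraries, and 92.5, 94.3 and 103 CPM in control libraries. Groups did not overlap, although the highest LPS library and the lowest LPS plus BHB library were almost level. The log2 fold change was 0.84 (SE 0.05) in LPS against control and 0.94 (SE 0.05) in LPS plus BHB against control. In LPS plus BHB against LPS it was 0.10 (SE 0.05), short of the threshold, and 0.14 and past it without LPS plus BHB replicate 1.

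Counts of members past the threshold are set beside the share of all genes past it. In LPS plus BHB against LPS, 5 of 8 members passed, with 50.7% of all genes: Mxi1, Mxd1 and Mxd4 higher (26.4% of all genes were) and Myc and Max lower (24.4%). In LPS against control, 6 passed, with 79.8% of all genes: Myc, Max and Mga higher (38.4%) and Mxi1, Mxd4 and Mnt lower (41.4%). In LPS plus BHB against control, 6 passed, with 78.4% of all genes: Max, Mxi1, Mxd1 and Mga higher (38.0%) and Mxd4 and Mnt lower (40.4%). Groups did not overlap for 6, 7 and 6 members in these comparisons, and for 56.7%, 82.7% and 80.2% of all genes. The median log2 fold change of the 8 members was 0.01, -0.06 and 0.30, against 0.01, -0.06 and -0.06 over all genes. Since these values chose the members, nothing is read from the counts, and the comparisons share libraries.

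**Figure D2:**
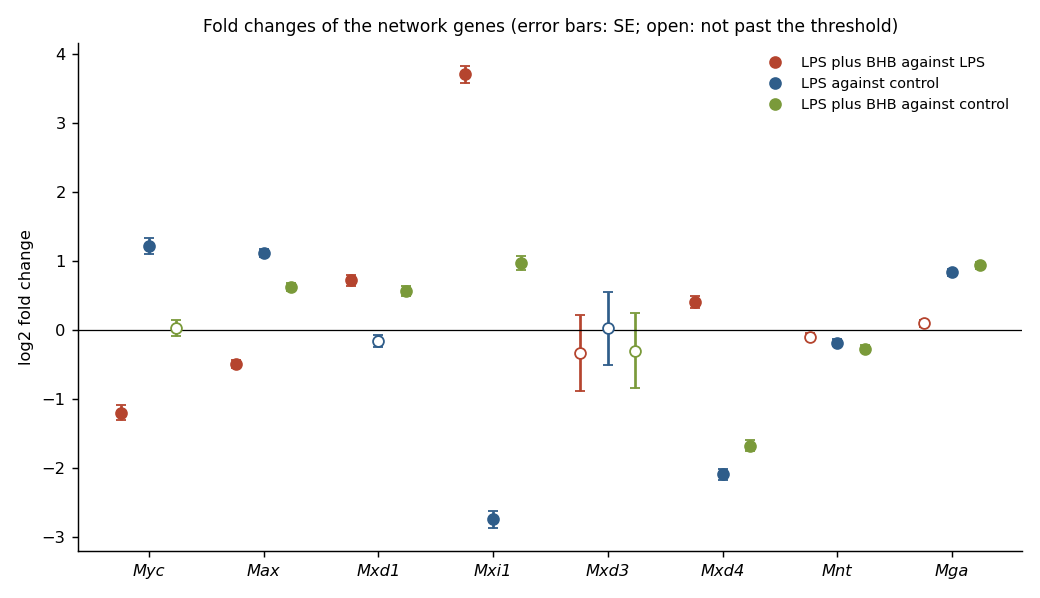
Log2 fold change of each network gene in 3 comparisons, with bars of 1 SE; filled points passed the adjusted threshold over all genes and open points did not. Mxi1 had the widest span, at 3.71 in LPS plus BHB against LPS and -2.74 in LPS against control, while Myc lay at -1.19 and 1.22.

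To set the genes beside each other, levels were divided by the summed length of each gene's annotated exons. The order on this scale (CPM per kb) depends on the length chosen, and with these lengths Max and Mnt were the most abundant members in every group. Max made up 34.6%, 46.7% and 27.7% of the summed level of the 8 genes in LPS plus BHB, LPS and control libraries, and Mnt 21.7%, 22.1% and 32.4%. Mxi1 made up 16.3%, 1.19% and 10.2%, so that with both agents only Max and Mnt stood above it, and with LPS alone only Mxd3 stood below it; with the longest annotated transcript as the length, Mxi1 (19.7 CPM per kb) and Mnt (19.6 CPM per kb) were level with both agents. The share of Myc was 5.86%, 12.8% and 7.08%, and that of Mga 13.5%, 12.1% and 8.71%. Mxd1 held 5.62%, 3.26% and 4.69%, and Mxd4 2.24%, 1.62% and 8.87%. Mxd3 held at most 0.322% in any group.

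The summed level per kb of Mxd1, Mxi1, Mxd3 and Mxd4 was 4.16 ± 0.0575 times that of Myc in LPS plus BHB libraries, 0.494 ± 0.0202 times in LPS libraries, and 3.51 ± 0.814 times in control libraries (SD, n = 3 each). LPS libraries were thus the group in which Myc exceeded these antagonists in RNA level, and the ranges of the other groups overlapped. With Mnt added to the sum, the ratio was 7.91 ± 0.588, 2.22 ± 0.0380 and 8.20 ± 1.72, and the antagonist sum exceeded Myc in all 9 libraries. Of the narrower sum, Mxi1 held 14.6, 1.11 and 7.41 CPM per kb in the 3 groups, and Mxd4 held 2.01, 1.51 and 6.41 CPM per kb. The ratio is one of RNA levels and depends on the lengths used: with the longest annotated transcript it was 5.14, 0.663 and 4.72, in the same order of groups.

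**Figure D3:**
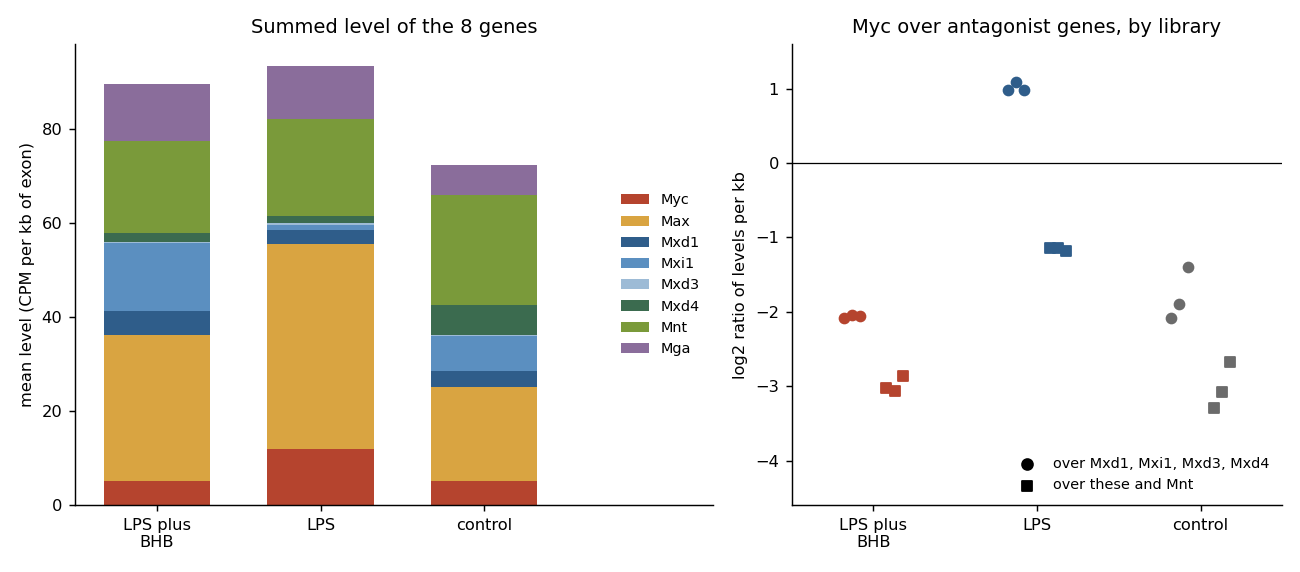
Left, mean level per kb of exon of the 8 genes, stacked, in LPS plus BHB, LPS and control libraries. Right, log2 ratio of Myc to the summed Mxd1, Mxi1, Mxd3 and Mxd4 (circles) and to that sum with Mnt (squares), 1 point per library. The circles average -2.06, 1.02 and -1.79, so LPS libraries alone lie above 0, and the squares average -2.98, -1.15 and -3.01.

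The genes whose levels ran closest to Myc over the 9 libraries, among 9322 tested genes that averaged 5 CPM or more, were Gng12, a G protein gamma subunit (Pearson r of log2 CPM 0.988), Srxn1, which repairs oxidised peroxiredoxins (0.985), Larp7, a 7SK RNA binding protein (0.981), Exosc2, an RNA exosome subunit (0.977), and Fubp3 (0.976). Each was highest in LPS libraries and nearly level in the others: Srxn1, for example, averaged 187, 305 and 185 CPM in LPS plus BHB, LPS and control libraries. Those closest to Mxd1 were Naip2, a sensor of bacterial secretion systems (0.985), Ugdh, which makes UDP-glucuronate (0.983), Layn (0.981), Maml3, a Notch coactivator (0.979), and Lamc1, a laminin chain (0.978). Naip2 averaged 61.4, 16.1 and 22.7 CPM. These correlations rest on 9 libraries in 3 groups and describe the shared order of groups.

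Of 7 further genes of the extended network, 5 passed the filter on low counts. Mycl, a MYC paralog known from dendritic cells, had 325, 384 and 224 counts in LPS plus BHB libraries, 1399, 1332 and 1148 counts in LPS libraries, and 10, 7 and 3 counts in control libraries. The groups did not overlap: on the log2 scale Mycl fell by 2.05 (SE 0.15, edgeR adjusted p = 5.64e-08) in LPS plus BHB against LPS and rose by 7.89 (SE 0.26, adjusted p = 1.78e-12) in LPS against control. Against control, LPS plus BHB libraries showed a rise of 5.85 (SE 0.30, adjusted p = 3.37e-10), although the control counts behind both large folds are few. Mycn had 1 count in all 9 libraries, and Mlxipl had 7, 0 and 1 counts in control libraries and none in the other 6.

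MLX is the partner of the glucose-sensing factors MLXIP and MLXIPL, and Txnip and Arrdc4, both arrestin family genes that limit glucose uptake, are its classical targets. Txnip stood at 184, 177 and 220 CPM in LPS plus BHB libraries, 72.1, 72.8 and 72.0 CPM in LPS libraries, and 1038, 1043 and 843 CPM in control libraries. It rose by 1.42 (SE 0.10, edgeR adjusted p = 1.54e-06) in LPS plus BHB against LPS and fell by 3.75 (SE 0.11, adjusted p = 2.53e-10) in LPS against control on the log2 scale. Arrdc4 took another course: 215, 219 and 196 CPM in LPS plus BHB libraries, 226, 229 and 231 CPM in LPS libraries, and 41.8, 46.9 and 39.7 CPM in control libraries. Its rise in LPS against control was 2.42 (SE 0.06, edgeR adjusted p = 4.94e-19), and LPS plus BHB against LPS gave -0.12 (SE 0.05, adjusted p = 0.0653), past the threshold in 9 of 16 alternatives, with an adjusted p from 0.00826 to 0.0488 in those. Mlx rose by 1.15 (SE 0.09, adjusted p = 2.82e-10) in LPS against control and fell by 0.30 (SE 0.08, adjusted p = 0.00584) in LPS plus BHB against LPS, where its groups overlapped. Mlxip fell by 0.38 (SE 0.05, adjusted p = 6.35e-07) in LPS against control and by 0.16 (SE 0.05, adjusted p = 0.0102) in LPS plus BHB against LPS, which missed the threshold when LPS replicate 2 (adjusted p = 0.0508) or LPS plus BHB replicate 1 (adjusted p = 0.0581) was left out. Txnip and Mlx share 17.4% and 17.1% of their 31-base words with other genes, so their counts are less certain.

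**Figure D4:**
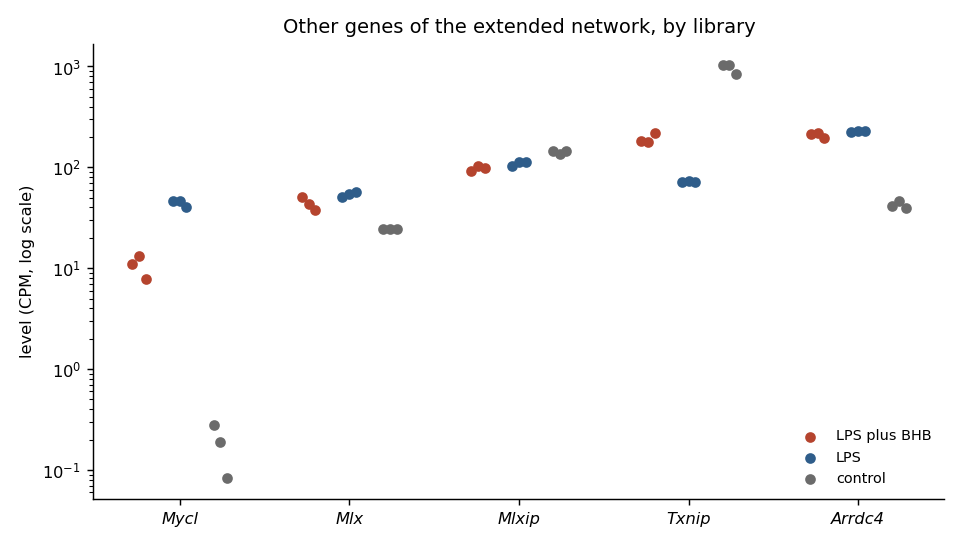
Level (CPM, log scale) of 5 genes of the extended network in each library, with LPS plus BHB, LPS and control from left to right for each gene. Mycl and Txnip run in opposite directions between LPS and control libraries, with log2 fold changes of 7.89 and -3.75.

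Genes that MYC is known to activate were then examined as lists, which were chosen with earlier results of these data known. Of 24 ribosome assembly genes, 22 fell (24.4% of all genes did) and 0 rose (26.4%) in LPS plus BHB against LPS (median log2 fold change -0.80, against 0.01 over all genes). The others were Bop1 (-0.02) and Ubtf (0.05, edgeR adjusted p = 0.432), the only one above 0, and DESeq2 also called 0 higher. In LPS against control, 22 rose (38.4% of all genes did) and 1, Ubtf, fell (41.4%), with a median of 1.26, against -0.06. In LPS plus BHB against control, 17 rose (38.0% of all genes did) and 4 fell (40.4%), with a median of 0.57, against -0.06. In that comparison Myc gave 0.03, with a sign that depended on the processing, and Mycl gave 5.85. Their part in these values was not tested.

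Mybbp1a, a nucleolar MYB-binding protein, averaged 255 ± 17.0, 405 ± 21.4 and 129.9 ± 1.26 CPM in LPS plus BHB, LPS and control libraries (SD, n = 3 each). It fell by 0.67 (SE 0.05, edgeR adjusted p = 6.02e-10) in LPS plus BHB against LPS and rose by 1.64 (SE 0.05, adjusted p = 3.55e-17) in LPS against control. Nop2, an RNA methyltransferase of the large subunit, averaged 35.3 ± 3.09, 64.8 ± 1.63 and 22.1 ± 0.898 CPM. Rrp12, which helps export ribosomal subunits, averaged 20.5 ± 3.15, 55.6 ± 1.36 and 12.97 ± 1.36 CPM and fell by 1.44 (SE 0.09, adjusted p = 1.94e-10) in LPS plus BHB against LPS. Gnl3, the nucleolar GTPase nucleostemin, averaged 82.5 ± 8.87, 148 ± 10.3 and 19.7 ± 2.06 CPM, and the helicase gene Ddx21 206 ± 25.6, 360 ± 2.26 and 71.5 ± 2.89 CPM. Gar1, a small nucleolar RNA protein, averaged 15.7 ± 0.870, 27.5 ± 1.01 and 7.14 ± 0.177 CPM. In all 6, named for their small p, the LPS plus BHB libraries lay between the other groups with no overlap. Of all genes, 56.7% had no overlap in LPS plus BHB against LPS. The share was 82.7% in LPS against control and 80.2% in LPS plus BHB against control. Wdr12, Dkc1, Polr1a and Ubtf instead fell in LPS plus BHB against control. In Utp20, Nop16, Pes1 and Polr1b the LPS plus BHB libraries overlapped control, and in Bop1 they overlapped LPS. The remaining genes of the list also lay between.

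**Figure D5:**
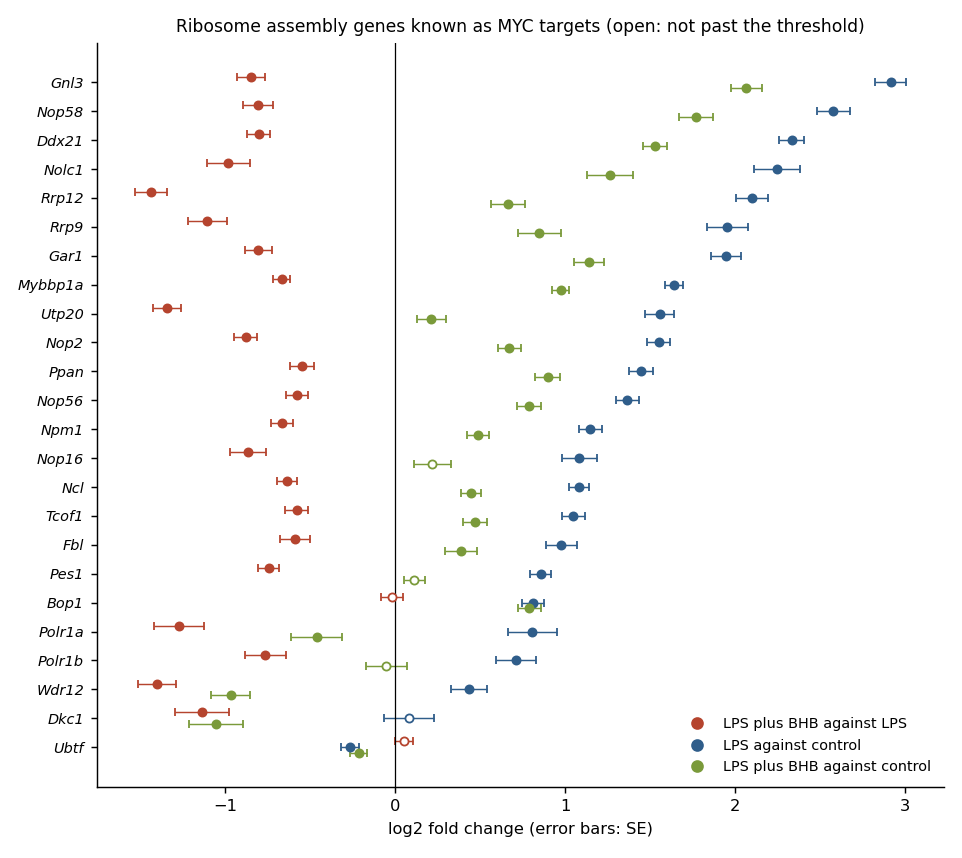
Log2 fold change (1 SE bars) of 24 ribosome assembly genes in 3 comparisons; filled points passed the adjusted threshold and open points did not. Past the threshold, 22 genes lie below 0 in LPS plus BHB against LPS (24.4% of all genes) and 22 lie above 0 in LPS against control (38.4%).

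Polyamine, nucleotide and one-carbon genes were mixed. Of 22, 4 rose and 14 fell in LPS plus BHB against LPS (median -0.33), 12 rose and 6 fell in LPS against control (median 0.46), and 10 rose and 11 fell in LPS plus BHB against control (median -0.34). Among all genes, 50.7%, 79.8% and 78.4% passed the threshold in these comparisons, with medians of 0.01, -0.06 and -0.06. Odc1, the rate-limiting enzyme of polyamine synthesis and a classical MYC target, was highest with both agents: it averaged 87.1 ± 8.42, 51.3 ± 1.70 and 17.6 ± 1.38 CPM in LPS plus BHB, LPS and control libraries (SD, n = 3 each). It rose by 0.77 (SE 0.07, edgeR adjusted p = 9.26e-09) in LPS plus BHB against LPS and by 1.55 (SE 0.08, adjusted p = 6.64e-14) in LPS against control, and 31.3% of its 31-base words occur in other genes. Srm, the next enzyme of that pathway, rose by 2.55 (SE 0.11, adjusted p = 7.39e-15) in LPS against control and fell by 0.61 (SE 0.10, adjusted p = 2.42e-05) in LPS plus BHB against LPS. Impdh1, of guanine nucleotide synthesis, and Mthfd1l, of mitochondrial folate metabolism, were highest with both agents, Impdh1 at 100.7 ± 6.05, 57.6 ± 3.54 and 28.9 ± 0.890 CPM. Cad, of pyrimidine synthesis, fell by 0.72 (SE 0.08, adjusted p = 4.55e-07) in LPS plus BHB against LPS. Prps2, a phosphoribosyl pyrophosphate synthase, fell by 2.43 (SE 0.11, adjusted p = 2.12e-14) in LPS against control.

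Of 9 growth arrest genes that MYC is known to repress, 3 rose and 5 fell in LPS plus BHB against LPS, 5 rose and 3 fell in LPS against control, and 6 rose and 2 fell in LPS plus BHB against control, with medians of -0.48, 1.18 and 1.35. The shares of all genes past the threshold were 50.7%, 79.8% and 78.4%, with medians of 0.01, -0.06 and -0.06. Cdkn1b, the inhibitor p27, averaged 166 ± 10.4, 68.1 ± 1.47 and 65.2 ± 2.51 CPM in LPS plus BHB, LPS and control libraries, and rose by 1.29 (SE 0.05, edgeR adjusted p = 3.03e-14) in LPS plus BHB against LPS. Cdkn1a, the inhibitor p21, averaged 993 ± 50.7, 1474 ± 101 and 106.5 ± 5.31 CPM. It rose by 3.79 (SE 0.06, adjusted p = 1.25e-21) in LPS against control, where Myc was higher too, and a link between them was not tested. Gadd45b, a stress response gene, rose by 4.15 (SE 0.05, adjusted p = 1.35e-23) in that comparison. Gadd45a rose by 1.01 (SE 0.05, adjusted p = 1.43e-12) in LPS plus BHB against LPS, whereas Cdkn1c, the inhibitor p57, fell by 1.08 (SE 0.09, adjusted p = 1.12e-09). Both share over 15% of their 31-base words with other genes (17.0% and 27.2%).

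Of 18 SIN3 and NCoR corepressor genes, whose proteins the antagonists recruit, 7 rose and 3 fell in LPS plus BHB against LPS, 7 rose and 6 fell in LPS against control, and 8 rose and 6 fell in LPS plus BHB against control, with medians of 0.00, -0.02 and 0.01. For comparison, 50.7%, 79.8% and 78.4% of all genes passed the threshold, with medians of 0.01, -0.06 and -0.06. Sap30, a SIN3 subunit, averaged 119.6 ± 14.4, 55.2 ± 1.17 and 25.9 ± 0.780 CPM and rose by 1.12 (SE 0.07, edgeR adjusted p = 1.05e-10) in LPS plus BHB against LPS. Sin3a, the scaffold of the complex, averaged 115.6 ± 3.33, 72.0 ± 0.406 and 70.2 ± 3.10 CPM and rose by 0.68 (SE 0.05, adjusted p = 2.19e-10) in the same comparison. Sap130 rose by 0.88 (SE 0.05, adjusted p = 4.36e-13) and Arid4a fell by 0.86 (SE 0.06, adjusted p = 1.15e-11) in LPS against control.

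Among 9 tested genes of PRC1.6, the Polycomb complex of MGA, 2 rose and 3 fell in LPS plus BHB against LPS, 4 rose and 1 fell in LPS against control, and 3 rose and 2 fell in LPS plus BHB against control, with medians of -0.12, 0.11 and 0.02. Across all genes, 50.7%, 79.8% and 78.4% passed the threshold, with medians of 0.01, -0.06 and -0.06. Rnf2, the ubiquitin ligase of PRC1.6, averaged 118 ± 6.04, 112.0 ± 2.56 and 33.9 ± 0.368 CPM, and rose by 1.73 (SE 0.05, edgeR adjusted p = 1.18e-17) in LPS against control. Wdr5, an adaptor protein of this and other chromatin complexes, rose by 0.90 (SE 0.05, adjusted p = 1.13e-12) and Cbx3, a heterochromatin protein, fell by 1.80 (SE 0.13, adjusted p = 3.87e-11) in LPS against control. Yaf2 rose by 0.77 (SE 0.09, adjusted p = 3.01e-07) and E2f6, a DNA-binding factor of PRC1.6, fell by 0.51 (SE 0.09, adjusted p = 0.000104) in LPS plus BHB against LPS.

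Of 21 cofactors of MYC and enzymes of its protein turnover, 6 rose and 9 fell in LPS plus BHB against LPS, 13 rose and 5 fell in LPS against control, and 15 rose and 6 fell in LPS plus BHB against control, with medians of -0.05, 0.67 and 0.45. Beside these counts, 50.7%, 79.8% and 78.4% of all genes passed the threshold, with medians of 0.01, -0.06 and -0.06. Zbtb17 (MIZ1), through which MYC represses genes, averaged 63.9 ± 1.46, 66.1 ± 0.853 and 20.6 ± 2.08 CPM. Ccnt1, cyclin T1 of the elongation factor P-TEFb, averaged 66.3 ± 1.99, 61.0 ± 1.78 and 31.7 ± 1.44 CPM. Usp36, a nucleolar enzyme that removes ubiquitin from MYC, averaged 89.2 ± 11.5, 129.9 ± 4.03 and 25.3 ± 1.253 CPM, and fell by 0.54 (SE 0.07, edgeR adjusted p = 8.52e-06) in LPS plus BHB against LPS. Usp28, another such enzyme, rose by 0.61 (SE 0.08, adjusted p = 1.25e-06) in that comparison, and Ruvbl1 fell by 0.64 (SE 0.08, adjusted p = 1.15e-06), with 57.0% of its words found in other genes.

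Of 24 replication and division genes, 6 rose and 7 fell in LPS plus BHB against LPS, 5 rose and 16 fell in LPS against control, and 4 rose and 17 fell in LPS plus BHB against control, with medians of -0.11, -0.60 and -0.85. These comparisons had 50.7%, 79.8% and 78.4% of all genes past the threshold, with medians of 0.01, -0.06 and -0.06. Ccnd1, cyclin D1, fell by 4.52 (SE 0.17, edgeR adjusted p = 3.66e-15) and Ccnd2, cyclin D2, rose by 3.90 (SE 0.11, adjusted p = 3.12e-18) in LPS against control. E2f1, a factor of replication genes, fell by 2.12 (SE 0.11, adjusted p = 1e-13) there. Genes of the replicative helicase differed among themselves. Mcm6 averaged 3.52 ± 0.118, 4.24 ± 0.272 and 19.4 ± 0.897 CPM in LPS plus BHB, LPS and control libraries, and gave -0.27 (SE 0.13, adjusted p = 0.0926) in LPS plus BHB against LPS. Mcm4 rose by 1.17 (SE 0.07, adjusted p = 5.09e-12) in LPS against control and fell by 0.98 (SE 0.07, adjusted p = 6.51e-10) in LPS plus BHB against LPS. Mcm3 likewise rose by 0.75 (SE 0.08, adjusted p = 1.79e-08) and fell by 0.83 (SE 0.08, adjusted p = 1.85e-08). Pcna, the replication clamp, fell by 0.56 (SE 0.05, adjusted p = 1.79e-08) in LPS plus BHB against LPS. Ccnd1 and Pcna share 22.3% and 23.3% of their 31-base words with other genes.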

How the data were processed

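Trizol extraction and Illumina library kits were used per the labels' protocols. Per the submitters' processing notes, reads were aligned with HISAT2 to mm10; for the aligner version, counting tool, annotation and strand, nothing is given in the sources used here. The authors deposited raw counts per gene symbol, 46095 symbols in 9 libraries, with no pooling stated. Library totals ran from 29633411 to 32798920 counts, so counting error matters only for genes with few counts.

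Genes were filtered with filterByExpr (minimum count 10), leaving 14026 genes with 99.956% of counts. Counts were scaled with TMM. In R 4.3.3, edgeR 4.0.16 fitted a robust quasi-likelihood model of the group over 9 libraries (6.72% biological coefficient of variation, 6 residual degrees of freedom), two-sided, with Benjamini-Hochberg adjustment over all genes. SE values are the size of the log2 fold change over the root of the F statistic. Replicates differed by more than sampling noise (chi-square per degree of freedom 3.10 to 10.41), and all 9 were counted.

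The members and gene lists were chosen with earlier results of these data known. The text names all members, the extended network, the 3 genes with the smallest p per list and comparison, and the 5 genes most like Myc and Mxd1 (prior count 2 for log2 CPM). A few genes picked by that rule are not reported here. Other genes named were chosen after their values were seen. Words of 31 bases shared with other genes were counted in GENCODE M21 transcripts; the members shared at most 5.87%. Alternatives were DESeq2 1.42.0 and its size factors, library totals, no filter, a replicate block, 6-library fits, each library left out, control replicates 2 and 3 left out, and the longest transcript.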

Additional observations from a re-analysis of the deposited data

How the results depend on the processing

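The count of members past the threshold was 5 or 6 in LPS plus BHB against LPS, 6 or 7 in LPS against control, and 6 or 7 in LPS plus BHB against control under 16 other settings of the fit. With library totals in place of TMM the median of all genes was -0.04, -0.34 and -0.38 in the 3 comparisons, and 3297 genes were higher and 3987 lower, 4283 and 7084, and 3922 and 7366, against 3697 and 3418, 5390 and 5801, and 5328 and 5662 with TMM. That setting also moved some list counts: SIN3 and NCoR genes that fell became 6, 11 and 10, PRC1.6 genes in LPS against control 2 higher and 3 lower, and those lower in LPS plus BHB against control 6. Leaving out each library in turn gave 3 to 5 SIN3 and NCoR genes lower in LPS plus BHB against LPS. With the longest transcript, the log2 ratio of Myc to Mxd1, Mxi1, Mxd3 and Mxd4 was -2.36, 0.59 and -2.21 in LPS plus BHB, LPS and control libraries, and that with Mnt added was -1.11 in LPS libraries. The cause of these shifts is the change of scaling or length itself, apart from the left-out libraries, where the cause was not tested.

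Same-numbered libraries showed no shared deviation (correlations -0.02 to 0.04). Whether they shared an animal, culture or day is not stated, and these correlations cannot decide it. A replicate block gave 5, 6 and 6 members and 7010, 11136 and 10908 genes past the threshold. Depth limits Mxd3, Mycn and Mlxipl. Beyond the chi-square comparison of libraries, single values were not tested for outliers, since each group has 3 libraries.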

Other observations

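Within the list of replication and division genes, Mki67, a nuclear protein of dividing cells chosen here after its values were seen, went against most of the list. It averaged 549 ± 33.2, 641 ± 12.97 and 39.8 ± 8.24 CPM in LPS plus BHB, LPS and control libraries (SD, n = 3 each). Other proliferation genes of the list, among them Cdk1 (log2 fold change -2.06) and Rrm2 (-2.10), were lower in LPS against control, whereas Mki67 was higher by 4.01. The mitochondrial folate enzyme gene Mthfd2, also chosen after its values were seen, averaged 237 ± 9.91, 301 ± 7.74 and 7.32 ± 1.84 CPM.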
